A study of Saccharomyces cerevisiae with 6 samples.

Results

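The 38 genes described here encode nuclear-encoded subunits of the yeast respiratory chain and of the mitochondrial ATP synthase, together with the ATP synthase inhibitor INH1 and the activator subunit HAP4. They were picked by gene name from the 6445 genes of the count tables, and all 38 names were found. They comprise 3 NADH dehydrogenases, 4 subunits of succinate dehydrogenase, 9 of the bc1 complex, 7 of cytochrome c oxidase and 13 of the ATP synthase.

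Transcripts were counted in a β-carotene-producing strain of Saccharomyces cerevisiae (genotype label CrtI/E/YB, named for carotenoid synthesis genes) and in its parent CEN.PK2-1C, labelled WT, a haploid laboratory strain with several auxotrophic markers. There were 3 libraries per strain. Both strains grew for 18 h at 30 °C with shaking at 250 rpm in YPD, a rich medium whose carbon source is glucose. The labels give neither the loci of the introduced genes nor the number of clones, and nothing in them ties the replicates to separate cultures. The p-values therefore reflect the spread among the 6 samples and nothing more, and that spread may be technical.

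Budding yeast has no proton-pumping NADH dehydrogenase. Single-protein enzymes on the outer and inner face of the inner membrane pass electrons from NADH to ubiquinone, as does succinate dehydrogenase, and the bc1 complex, cytochrome c and cytochrome c oxidase carry them on to oxygen. The proton gradient made on the way drives the ATP synthase. In glucose medium many of these genes are held down, and when glucose runs out the Hap complex, which binds CCAAT boxes upstream of respiratory genes through Hap2, Hap3 and Hap5 and activates through Hap4, raises them.

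The 250 bases upstream of each start codon were searched on both strands for CCAAT and for ACCAATNA, a longer form of the Hap box that contains it. The longer form was present upstream of 16 of the 38 genes, or 42.1%, against 258 of 5975 nuclear protein-coding genes searched, or 4.32%. CCAAT was present upstream of 33 of the 38, or 86.8%, against 35.4% of all 5975. By complex the longer form occurred upstream of 2 of 3 NADH dehydrogenase genes, 0 of 4 succinate dehydrogenase genes, 2 of 9 bc1 genes, 4 of 7 cytochrome c oxidase genes and 7 of 13 ATP synthase genes, as well as upstream of HAP4 itself. A match describes these letters only and was not tested as a binding site. Examples from each complex with a match, with the gene whose level passed the test (COX6) and the activator gene (HAP4) first, are shown with their surroundings. The fixed letters of the match are alike by the choice of motif. Bases are given 5′ to 3′ on the strand of the gene, from the sacCer3 assembly, and capitals mark the match.

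COX6: gaaaagggaccTAATTGGTccggtcaaagc (chrVIII:209477-209506, plus strand, match starting 217 bases before the start codon)
HAP4: tccacacatatTTATTGGTctcctagtaca (chrXI:232121-232150, plus strand, match starting 95 bases before the start codon)
NDI1: tattcattcggACCAATCAtatgaaggcat (chrXIII:30017-30046, minus strand, match starting 228 bases before the start codon)
QCR7: atcttgttttgACCAATCAggagcgacgcg (chrIV:1496712-1496741, minus strand, match starting 182 bases before the start codon)
COX12: tcataacattgACCAATCAattttcagaaa (chrXII:225360-225389, minus strand, match starting 206 bases before the start codon)
COX13: ttttttttcccACCAATGAgaggcggtact (chrVII:144584-144613, plus strand, match starting 213 bases before the start codon)
ATP4: atcaatattgaACCAATCAcgacgcttttt (chrXVI:408916-408945, minus strand, match starting 190 bases before the start codon)
ATP17: ttacggagagaACCAATCAtatcgaaggat (chrIV:1228370-1228399, plus strand, match starting 230 bases before the start codon)
ATP19: gatctcgatggTGATTGGTcagagtccgct (chrXV:185291-185320, plus strand, match starting 136 bases before the start codon)

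In COX6, HAP4 and ATP19 the box reads on the opposite strand, so that it appears in its complementary form. The 17 matches of the 16 genes started at a median of 196 bases before the start codon, and 13 of them, or 76.5%, started between 130 and 230 bases before it. The 251 matches upstream of the other genes had a median of 131 bases, and 41.8% lay in the same interval. The interval was chosen after the positions were seen.

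**Figure D1:**
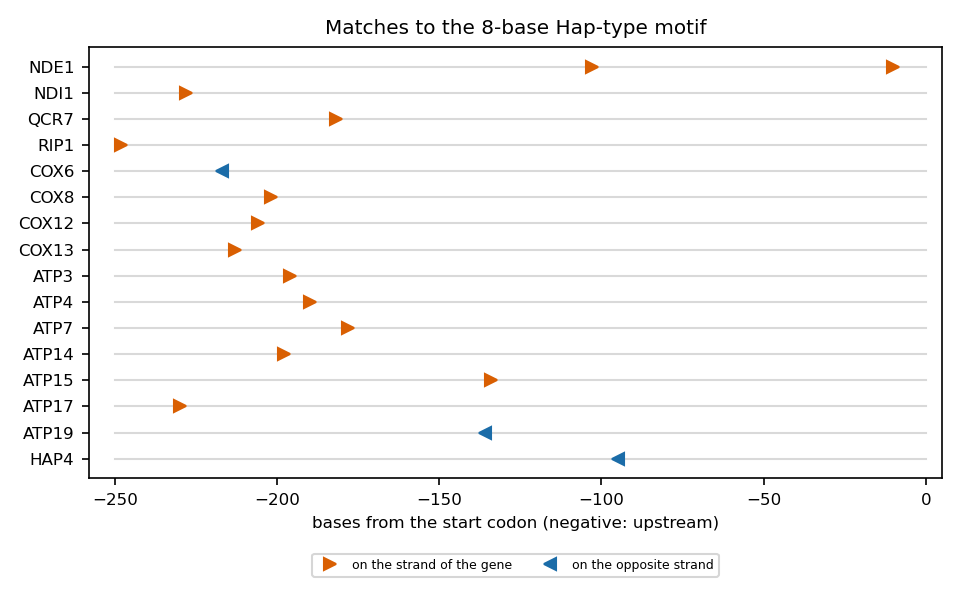
Position of each match to the 8-base motif in the 250 bases upstream of the start codon, 1 row per gene (x axis, bases from the start codon; arrowheads give the strand). Of the 17 matches, 13 lie between 130 and 230 bases upstream, and those of COX6, ATP19 and HAP4 are on the opposite strand.

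The libraries of the producer held 56.8, 58.3 and 57.0 M estimated counts (M, 1e6), and those of the parent held 57.5, 48.7 and 48.4 M. The 38 genes took 1.04%, 1.04% and 1.03% of producer counts, against 1.08%, 0.962% and 1.04% of parental counts. GAL80, a regulator of galactose genes that the genotype label does not name, was read 0, 0 and 2 times in producer libraries, against 6267, 4941 and 4891 times in parental libraries. STE2, the receptor of a cells, lay between 281 and 337 CPM over the 6 libraries and STE3, that of α cells, between 13.8 and 19.5 CPM. The other a-cell genes were lower than STE2. STE6 averaged 169 CPM in the producer and 190 CPM in the parent, and BAR1 69.4 CPM in the producer and 65.5 CPM in the parent. MFA2 averaged 37.0 CPM in the producer and 31.4 CPM in the parent, and MFA1 12.9 CPM in the producer and 10.2 CPM in the parent. Of other α-cell genes, SAG1 averaged 115 ± 3.43 CPM in the producer and 97.4 ± 7.03 CPM in the parent (SD, n = 3 each). MF(ALPHA)1 averaged 1.23 ± 0.409 CPM in the producer and 1.89 ± 0.932 CPM in the parent. MF(ALPHA)2 averaged 9.77 ± 1.28 CPM in the producer and 9.20 ± 0.328 CPM in the parent. Parental replicate 2 stood apart, holding the lowest value of 29.8% and the highest value of 31.8% of all genes tested. Of the 37 measured members, 4 had their highest value there and 21 their lowest, while 13 were lowest in producer replicate 3, 2 in producer replicate 2 and 1 in producer replicate 1. Fold changes over all genes followed gene GC content, with a Spearman correlation of 0.652 across 5917 nuclear protein-coding genes and 0.651 across the 37 (genes are not independent replicates). GC-corrected fold changes are therefore given beside the uncorrected ones.

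Transcripts of the 37 measured members differed by less than 1.5-fold between the strains. One of the 37 tested genes passed an adjusted p under 0.05 in edgeR's quasi-likelihood test, COX6, which fell, against 1.14% of all 6125 genes tested in either direction (0.343% lower, 0.8% higher). The 95% interval of the fold change lay within 1.5-fold in either direction for all 37 tested genes, against 81.8% of all genes. These shares are not matched for level, since the 37 stood at a median of the 91.7th percentile of level per kb. Fold changes of the 37 ran from -0.33 to 0.27 on the log2 scale. Their median was -0.0048, beside -0.0073 for all genes tested. An unadjusted p under 0.05 was reached by 5 of 37, against 27.3% of all genes. DESeq2 called 1 of the 37, against 13.3% of all genes, and limma-voom 0, against 1.04%. The strains did not overlap in 7 of the 37 genes, 1 higher and 6 lower in the producer, against 33.7% of all genes (16.6% higher and 17.2% lower). In bulk RNA a change in RNA per cell and a change in the share of cells that express a gene cannot be told apart.

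**Figure D2:**
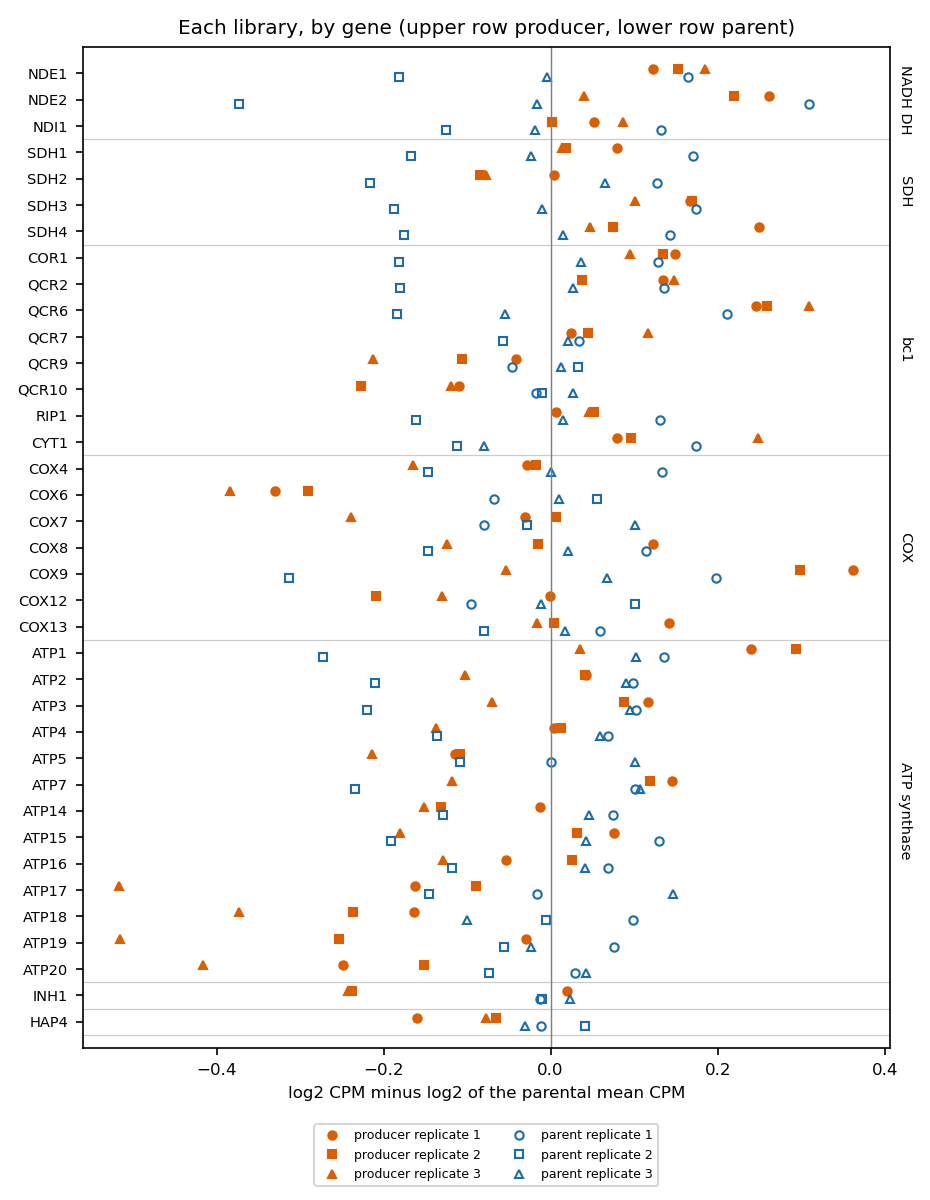
Level of each gene in every library as log2 CPM minus the log2 of the parental mean (x axis), with producer libraries as filled symbols in the upper row and parental libraries as open symbols in the lower row of each gene. Parental replicate 2 (open squares) is the lowest library for 21 of the 37 genes, and the 3 producer values of COX6 lie below all 3 parental ones.

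The NADH dehydrogenases comprised 2 abundant transcripts and 1 scarce one. NDE1, the main enzyme on the outer face, which oxidises cytosolic NADH, had 807, 824 and 842 CPM in producer libraries, against 831, 653 and 739 CPM in parental libraries. NDI1, the enzyme on the inner face, which oxidises NADH of the matrix, had 727, 702 and 745 CPM in producer libraries, against 769, 643 and 692 CPM in parental libraries. NDE2, the second enzyme of the outer face, had 109, 106 and 93.4 CPM in producer libraries, against 113, 70.1 and 89.8 CPM in parental libraries. In all 3 genes the strains overlapped, with parental replicate 2 the lowest library. Their log2 fold changes were 0.15 ± 0.11 (SE), 0.048 ± 0.097 and 0.18 ± 0.15, and 0 passed (edgeR adjusted p 0.371, 0.777 and 0.458), with 0 at an unadjusted p under 0.05 and 0 called by DESeq2 or limma-voom. GC-corrected, NDE1 was at 0.10, NDI1 at -0.069 and NDE2 at 0.038, and the median of the 3 was 0.038 in place of 0.15. Per kb of coding length, NDE1 stood 7.21, 7.58 and 8.78 times as high as NDE2 in producer libraries, against 7.18, 9.07 and 8.01 times in parental libraries, so the ratio overlapped between strains.

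Succinate dehydrogenase had 0 of 4 genes past the threshold in edgeR, 0 with an unadjusted p under 0.05 and 0 called by DESeq2 or limma-voom, with a median log2 fold change of 0.082. SDH3, a membrane anchor, had 243, 243 and 232 CPM in producer libraries, against 244, 189.9 and 215 CPM in parental libraries. SDH4, the other anchor, had 212, 188 and 184 CPM in producer libraries, against 197, 158 and 180.1 CPM in parental libraries. Both had overlapping strains, and their log2 fold changes were 0.15 ± 0.092 (SE) and 0.13 ± 0.094. SDH2, the iron-sulfur subunit, had 308, 289.9 and 292 CPM in producer libraries, against 336, 265 and 322 CPM in parental libraries. SDH1, the flavoprotein that oxidises succinate, had 492, 471 and 469.8 CPM in producer libraries, against 524, 414 and 458 CPM in parental libraries. These 2 catalytic subunits were at -0.052 ± 0.095 (SE) and 0.038 ± 0.099 on the log2 scale, and in all 4 genes parental replicate 2 gave the lowest value. After the GC-content correction SDH1 was at -0.18, SDH2 at -0.15, SDH3 at 0.064 and SDH4 at -0.0076, with a median of -0.077.

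In the bc1 complex 8 of 9 genes could be tested and 0 passed in edgeR, 2 had an unadjusted p under 0.05 and DESeq2 and limma-voom called 0, with a median log2 fold change of 0.085, or -0.038 after the GC-content correction. QCR6, a small acidic subunit next to cytochrome c1, had 488, 493 and 510.2 CPM in producer libraries, against 477, 362 and 396 CPM in parental libraries. The strains did not overlap in QCR6, whose log2 fold change was 0.27 ± 0.11 (SE) with an edgeR adjusted p of 0.15. Without parental replicate 1 it was 0.39 and passed (adjusted p 0.024), while after the GC-content correction it was 0.042. QCR10, another small subunit, had 87.3, 80.5 and 86.8 CPM in producer libraries, against 93.1, 93.6 and 96.0 CPM in parental libraries. Here the producer libraries were the lower ones without overlap, with a log2 fold change of -0.15 ± 0.065 (SE) and an adjusted p of 0.174. With GC content taken out it was -0.012. QCR9 was at -0.12 ± 0.066 and QCR7 at 0.062 ± 0.069, or -0.095 and -0.046 GC-corrected, with overlapping strains.

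None of the core and redox subunits of bc1 passed. CYT1, cytochrome c1, averaged 642 ± 42.2 CPM in the producer and 582 ± 64.8 CPM in the parent (SD, n = 3 each). RIP1, the Rieske iron-sulfur protein, averaged 333 ± 5.60 CPM in the producer and 325 ± 32.8 CPM in the parent. The core proteins COR1 and QCR2 were at 0.13 ± 0.10 (SE) and 0.11 ± 0.10 on the log2 scale, CYT1 at 0.14 ± 0.11 and RIP1 at 0.035 ± 0.086, with overlapping strains in all 4. With GC content taken out, CYT1 was at -0.061, QCR2 at -0.030 and RIP1 at -0.058, all below 0, and COR1 at 0.036. QCR8, which encodes a small subunit that the complex needs for respiration, was listed at 0 counts in all 6 libraries (YJL166W, chrX:106434-106718, plus strand). Of 5976 nuclear protein-coding genes, 19 were listed at 0 in every library. The genes beside QCR8 had ordinary values, ERG20 between 14665 and 19818 counts and HAL5 between 8803 and 11626, so the 0 is given as listed and nothing is read from it about QCR8.

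Cytochrome c oxidase, which reduces oxygen, held the one gene that passed. COX6, its subunit VI (YHR051W, chrVIII:209705-210151, plus strand), had 120.2, 124 and 116 CPM in producer libraries, against 144, 157 and 152 CPM in parental libraries. All 3 producer libraries lay below all 3 parental ones, with a mean of 119.9 ± 3.92 CPM in the producer and 151 ± 6.50 CPM in the parent (SD, n = 3 each). It fell by 0.33 on the log2 scale (SE 0.063, 95% interval -0.48 to -0.19), with an edgeR adjusted p of 0.0455. With GC content taken out, the log2 fold change was -0.28 with an adjusted p of 0.0425. Over 18 alternative settings it stayed between -0.39 and -0.28 and its adjusted p ran from 0.000642 to 0.745, passing in 8 of them. Leaving out any library but parental replicate 1 ended the call, with adjusted p of 0.162, 0.16 and 0.13 without producer replicate 1, 2 or 3 and 0.0548 and 0.191 without parental replicate 2 or 3. YHR050W-A, a short reading frame that ends 59 bases upstream of COX6 on the same strand, had 11.04, 11.4 and 11.3 CPM in producer libraries, against 12.7, 21.1 and 16.5 CPM in parental libraries, a log2 fold change of -0.57 ± 0.17 (SE) with an adjusted p of 0.0922. CIC1, the next gene to the right, was at -0.13 ± 0.14. GC-corrected values were -0.28 for YHR050W-A and 0.082 for CIC1. Whether reads of such close neighbours can be separated by the authors' counting was not tested.

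The other 6 oxidase subunits among the members did not pass, and their strains overlapped. COX9, a small subunit, had 68.6, 65.7 and 51.4 CPM in producer libraries, against 61.3, 43.0 and 55.9 CPM in parental libraries, a log2 fold change of 0.21 ± 0.15 (SE). COX12, a subunit on the outer side, had 71.8, 62.1 and 65.6 CPM in producer libraries, against 67.2, 77.0 and 71.2 CPM in parental libraries, at -0.11 ± 0.084. Parental replicate 2 was the lowest library in COX9 and the highest in COX12, and after the GC-content correction COX9 was at -0.057. COX13, the subunit with the highest level per kb, had 168, 153 and 151 CPM in producer libraries, against 159, 145 and 155 CPM in parental libraries, at 0.044 ± 0.070. COX7, the one with the lowest, had 42.3, 43.4 and 36.6 CPM in producer libraries, against 40.9, 42.4 and 46.4 CPM in parental libraries, at -0.084 ± 0.094. COX4 was at -0.069 ± 0.083 and COX8 at -0.0019 ± 0.091. GC-corrected, COX4 was at -0.13, COX7 at -0.0080, COX8 at 0.045, COX12 at -0.12 and COX13 at -0.048, so COX8 and COX13, like COX9, had the other sign. The median of the 7 genes was -0.069 on the log2 scale and -0.056 after the GC-content correction.

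In the ATP synthase 0 of 13 genes passed in edgeR, and 2 had an unadjusted p under 0.05. DESeq2 and limma-voom called 0 of them as well. The median log2 fold change was -0.051, with 10 of 13 below 0. In the catalytic head neither large subunit separated the strains. ATP2, the β subunit, had 1087, 1086 and 982 CPM in producer libraries, against 1129.7, 912 and 1124 CPM in parental libraries. ATP1, the α subunit, had 869.6, 903 and 754 CPM in producer libraries, against 809, 609.5 and 790.4 CPM in parental libraries. The strains overlapped in both, at -0.0048 ± 0.12 (SE) and 0.19 ± 0.13 on the log2 scale, and at -0.13 for ATP2 and 0.047 for ATP1 GC-corrected. In the central stalk, ATP3 (γ) was at 0.047 ± 0.10, ATP16 (δ) at -0.051 ± 0.074 and ATP15 (ε) at -0.020 ± 0.11, or 0.082, -0.045 and -0.035 GC-corrected. In the peripheral stalk, ATP4 (b) was at -0.039 ± 0.080, ATP5 (the oligomycin sensitivity protein) at -0.14 ± 0.072, ATP7 (d) at 0.053 ± 0.11 and ATP14 (h) at -0.097 ± 0.075. The GC-corrected values of these 4 were -0.020, -0.18, 0.048 and -0.18.

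ATP17, ATP18, ATP19 and ATP20, small subunits of the membrane part of the ATP synthase, had the lowest fold changes of the 13 genes, between -0.27 and -0.24 on the log2 scale, and none of them passed. TIM11, another small membrane subunit (e) that is not among the 13, was at 0.096 ± 0.089. ATP20, subunit g, which takes part in pairing of the enzyme (YPR020W, chrXVI:599870-600217, plus strand), had 40.6, 43.4 and 36.1 CPM in producer libraries, against 49.2, 45.8 and 49.6 CPM in parental libraries. ATP18, subunit i or j (YML081C-A, chrXIII:103983-104162, minus strand), had 25.2, 24.0 and 21.8 CPM in producer libraries, against 30.3, 28.2 and 26.4 CPM in parental libraries. In these 2 genes and in ATP5 the producer libraries lay below all parental ones. ATP17, subunit f, had 79.3, 83.5 and 62.1 CPM in producer libraries, against 87.8, 80.3 and 98.3 CPM in parental libraries. ATP19, subunit k, had 22.0, 18.8 and 15.7 CPM in producer libraries, against 23.6, 21.6 and 22.1 CPM in parental libraries. In both the strains overlapped, and producer replicate 3 was the lowest library of all 4 genes. Their adjusted p in edgeR were 0.111 for ATP20, 0.143 for ATP18, 0.219 for ATP17 and 0.238 for ATP19. After the GC-content correction ATP20 was at -0.061, and ATP17, ATP18 and ATP19 were at -0.24, -0.31 and -0.24. These 4 were grouped after their values were seen.

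INH1, the small protein that blocks ATP hydrolysis by the enzyme, had 65.6, 54.9 and 54.7 CPM in producer libraries, against 64.1, 64.2 and 65.7 CPM in parental libraries. Its strains overlapped through producer replicate 1, and its log2 fold change was -0.15 ± 0.088 (SE) with an edgeR adjusted p of 0.293. With GC content taken out it was -0.37, with an adjusted p of 0.0875. HAP4, the activator subunit of the Hap complex (YKL109W, chrXI:232227-233891, plus strand), had 364, 388 and 385 CPM in producer libraries, against 403, 418 and 398 CPM in parental libraries. All producer values were below all parental ones, but by a small step of -0.10 ± 0.072 (SE) on the log2 scale that did not pass (adjusted p 0.384), and after the GC-content correction it was -0.022. Of the 16 measured genes with the longer upstream box, 7 lay above and 9 below 0, at a median of -0.011 on the log2 scale. The 16 with CCAAT alone had a median of -0.051 and the 5 with neither a median of 0.14. GC-corrected, these medians were -0.047 with the longer box, -0.059 with CCAAT alone and 0.036 with neither.

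**Figure D3:**
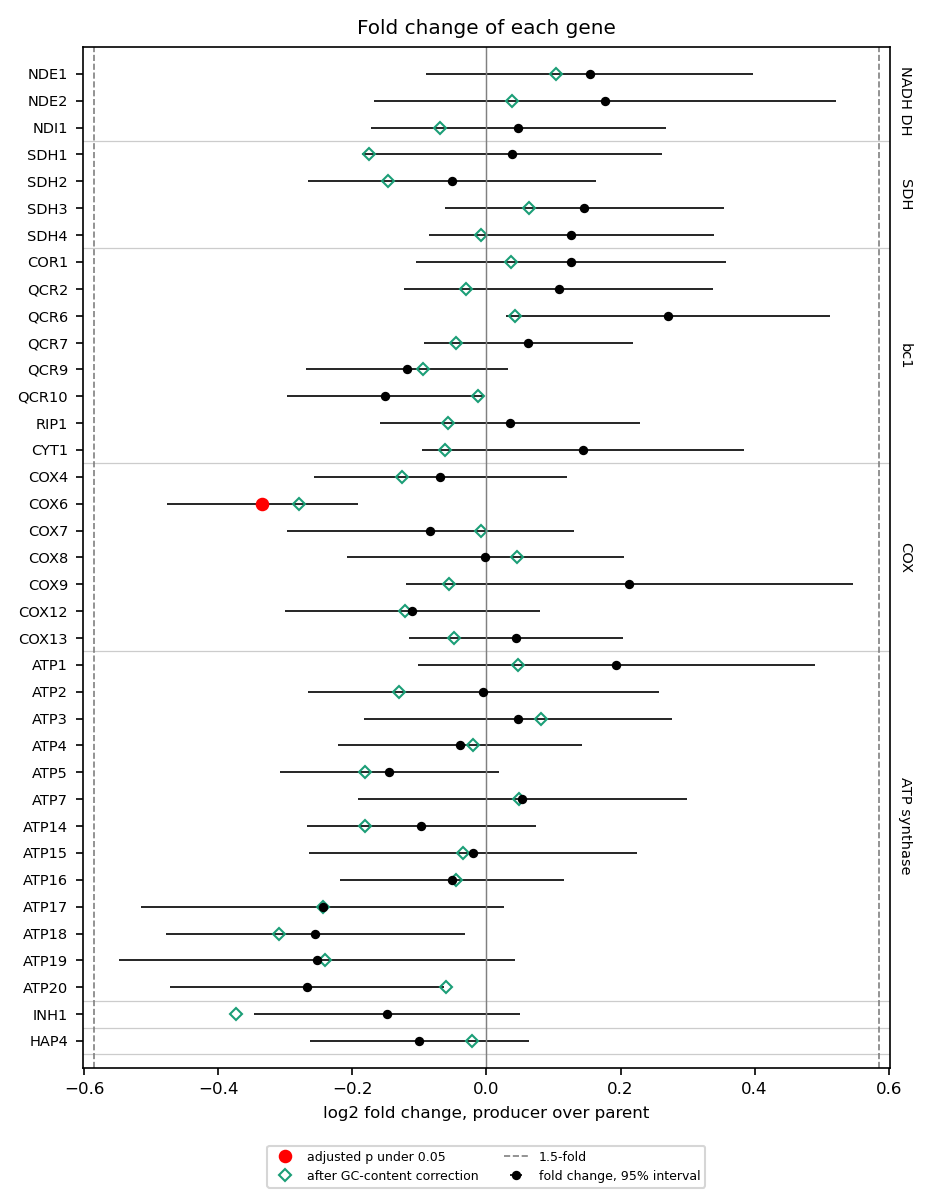
Log2 fold change of each gene, producer over parent (x axis), with its 95% interval from edgeR, and its value after the GC-content correction (open diamonds). All 37 intervals lie within the dashed lines at 1.5-fold, and COX6, in red, is the gene with an adjusted p under 0.05.

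Levels of different genes were compared as CPM per kb of coding length. The 37 genes had a median of 341 CPM per kb over the 6 libraries, at the 91.7th percentile of tested genes, whose median was 74.99 CPM per kb. The bc1 complex had the highest median, 595, 564 and 561 in producer libraries, against 594, 514 and 553 in parental libraries, in CPM per kb. The NADH dehydrogenases came next in every library, with 472, 455 and 483 in producer libraries, against 494, 388 and 439 in parental libraries. Succinate dehydrogenase had 386, 353 and 351 in producer libraries, against 384, 303 and 345 in parental libraries, cytochrome c oxidase 289, 291 and 263 in producer libraries, against 323, 305 and 311 in parental libraries, and the ATP synthase 268, 283 and 254 in producer libraries, against 292, 262 and 321 in parental libraries. The order of these last 3 was not the same in every library, and their ranges over libraries met.

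Transcript levels per kb were not equal among subunits of one complex, and how uneven they were differed by complex. Across the 13 ATP synthase genes these levels ran with coding length, with a Spearman correlation of 0.742. It was 0.277 across the 37 measured members and -0.156 across the 5917 nuclear protein-coding genes tested. Whether short transcripts were counted less completely was not tested. Over the 4 subunits of succinate dehydrogenase the highest was only 1.53 to 1.69 times the lowest in the 6 libraries, with SDH1 lowest in each and SDH3 highest in the producer libraries, SDH2 in the parental libraries. Over the 7 subunits of cytochrome c oxidase the ratio was 1.57 to 1.94, with COX13 highest and COX7 lowest in each. In the bc1 complex it was 2.04 to 3.23, with QCR6 highest and QCR10 lowest, and QCR8 left out. In the ATP synthase it was 5.70 to 8.44, with ATP2 highest and ATP19 lowest: ATP2, which is present in more than 1 copy per enzyme, as is ATP1, stood at 685 CPM per kb in the producer and 687 in the parent, and ATP19 at 90.9 CPM per kb in the producer and 108 in the parent.

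The spread of subunit levels, as the SD of log2 CPM per kb, was wider in the producer in 2 complexes. In the ATP synthase it was 0.81, 0.84 and 0.86 in producer libraries, against 0.74, 0.67 and 0.77 in parental libraries. In the bc1 complex it was 0.48, 0.52 and 0.52 in producer libraries, against 0.45, 0.43 and 0.40 in parental libraries. In neither did the strains overlap, but after the GC-content correction they did, at 0.74, 0.79 and 0.83 in the producer, against 0.72, 0.82 and 0.82 in the parent for the ATP synthase and 0.38, 0.44 and 0.46 in the producer, against 0.43, 0.60 and 0.48 in the parent for the bc1 complex. For succinate dehydrogenase it was 0.31, 0.31 and 0.30 in producer libraries, against 0.29, 0.28 and 0.32 in parental libraries, which overlap, and after the correction 0.39, 0.36 and 0.34 in the producer, against 0.29, 0.16 and 0.26 in the parent, which do not. For cytochrome c oxidase it was 0.34, 0.30 and 0.31 in producer libraries, against 0.31, 0.27 and 0.23 in parental libraries, with overlap. These spreads are a description, since the subunits were a chosen set.

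**Figure D4:**
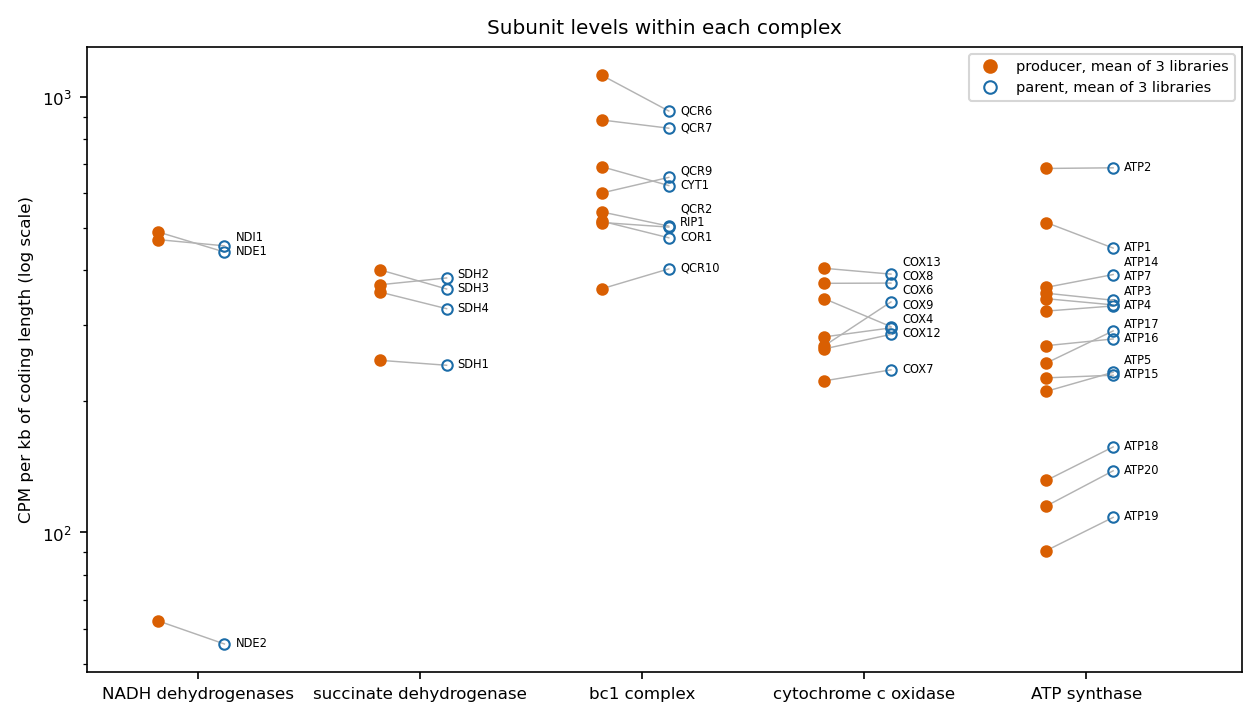
Mean level of each measured subunit in CPM per kb of coding length (log axis), producer on the left and parent on the right of each complex, joined by a line. Subunits of succinate dehydrogenase and cytochrome c oxidase lie within 2 times of each other, while those of the ATP synthase run from ATP19 to ATP2, 5.70 to 8.44 times apart in single libraries.

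Before the GC-content correction, fold changes of the members ran with their length. Of the 10 measured genes with a coding length under 300 bases, 9 had a negative log2 fold change, with a median of -0.11, and of the 9 with at least 1000 bases, 2 did, with a median of 0.11. The 18 genes between had a median of -0.0020. Over all nuclear protein-coding genes tested, the median was -0.018 for those under 300 bases, 0.021 for those between and -0.020 for those of at least 1000 bases. Negative values were held by 154 of 284 genes under 300 bases and by 1916 of 3541 of at least 1000 bases. Across the 37 genes the Spearman correlation of coding length and log2 fold change was 0.475, and across the 13 ATP synthase genes 0.709, against -0.154 across the 5917 (a description across genes). After the GC-content correction the medians of the short, middle and long members were -0.076, -0.053 and -0.022. Of the short ones, only COX8 was then above 0. Among the long ones, NDI1, SDH1, QCR2, ATP2 and HAP4 were below 0, and NDE1, NDE2, COR1 and ATP1 above. Lengths were examined after the fold changes were seen.

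**Figure D5:**
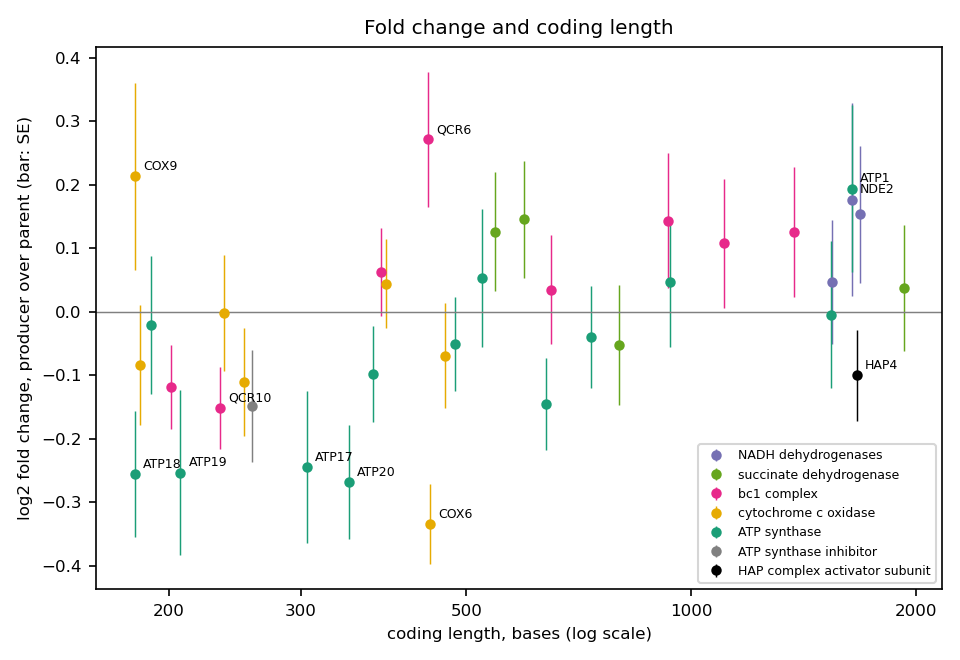
Log2 fold change, producer over parent (y axis, bars are SE), against coding length in bases (log axis) for the 37 measured genes, coloured by complex. ATP17 to ATP20 lie between -0.27 and -0.24 and COX6 at -0.33, while 7 of the 9 genes of at least 1000 bases lie above 0. The values shown are not GC-corrected, and after that correction the median of these 9 was -0.022.

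Set against their mean over all 6 libraries, the 37 genes stood at medians of 0.049, 0.015 and -0.089 log2 units for producer libraries, against 0.096, -0.14 and 0.037 for parental libraries, so the strains overlapped. After the GC-content correction they stood at -0.043, -0.043 and -0.11 for producer libraries, against 0.064, 0.065 and 0.079 for parental libraries, without overlap. On that scale 28 of the 37 fold changes were negative, with a median of -0.048, against 2989 of 6063 genes with a median of 0.0025. Of the 90 other genes of respiration described below, 62 were negative, with a median of -0.057. COX6 was the gene of the 37 that passed.

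Among 90 other genes of respiration in 8 lists, 0 passed in edgeR in either direction, 28 had an unadjusted p under 0.05, DESeq2 called 12 and limma-voom 0. The 95% interval of the fold change lay within 1.5-fold for 78 of the 90, against 81.8% of all genes. Over all genes, 27.3% had an unadjusted p under 0.05, DESeq2 called 815 of 6136 (13.3%) and limma-voom 64 of 6125 (1.04%), so 28 and 12 of 90 lie near these shares. Of the further structural subunits and cytochrome c genes, YJL045W, a relative of SDH1, averaged 30.1 ± 4.50 CPM in the producer and 20.4 ± 3.95 CPM in the parent (SD, n = 3 each), a log2 fold change of 0.56 ± 0.16 (SE) with an adjusted p of 0.0891. COX26, a small oxidase subunit, averaged 47.4 ± 0.223 CPM in the producer and 56.3 ± 2.23 CPM in the parent, at -0.25 ± 0.071 with 0.0896. All producer values of COX26 lay below all parental ones. In this list of 9 genes, 1 was lower and 2 were higher without overlap, against 17.2% and 16.6% of all genes. SHH3 and SHH4, relatives of the SDH3 and SDH4 anchors, were at 0.17 ± 0.068 and 0.14 ± 0.10. GC-corrected, YJL045W was at 0.39, COX26 at -0.42, SHH3 at 0.089, SHH4 at 0.028 and TIM11 at 0.096. The aerobic and hypoxic isoforms did not pass either, with COX5A at 0.056 ± 0.079, COX5B at -0.12 ± 0.093, CYC1 at 0.016 ± 0.10 and CYC7 at 0.076 ± 0.079. With GC content taken out, COX5A was at -0.14, COX5B at -0.11, CYC1 at -0.087 and CYC7 at 0.055.

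Genes that build the complexes were summarised as lists of their own, from the same fit over all genes, and no list was tested as a set. In the list of 33 genes for assembly and expression of cytochrome c oxidase, with a median of -0.037, 0 passed in edgeR, 14 had an unadjusted p under 0.05 (27.3% of all genes) and DESeq2 called 8 (13.3% of all genes). GC-corrected, the median of this list was -0.13, with 25 of 33 below 0. PET111, which activates translation of the mitochondrial COX2 mRNA, averaged 44.6 ± 2.58 CPM in the producer and 62.7 ± 7.80 CPM in the parent (SD, n = 3 each), at -0.49 ± 0.10 (SE) on the log2 scale. PET100, an assembly chaperone, averaged 28.9 ± 0.377 CPM in the producer and 41.1 ± 6.08 CPM in the parent, at -0.51 ± 0.11. CMC1, another assembly factor, averaged 23.3 ± 1.31 CPM in the producer and 30.9 ± 3.90 CPM in the parent, at -0.41 ± 0.11. In all 3 the producer libraries were lower without overlap, with edgeR adjusted p of 0.0609, 0.0667 and 0.0822. After the GC-content correction they were at -0.25, -0.32 and -0.24. These had the smallest p of the list, of which 15 genes lay above 0 and 18 below. Without overlap, 6 of the 33 were higher and 11 lower in the producer, against 16.6% and 17.2% of all genes. The largest rise was PET122, at 0.54 ± 0.18 with an edgeR adjusted p of 0.109, or 0.082 GC-corrected.

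The 16 genes for assembly and expression of the ATP synthase had a median of -0.15, or -0.055 after the GC-content correction, with 0 past the threshold, 4 with an unadjusted p under 0.05 and 1 called by DESeq2, against 27.3% and 13.3% of all genes. INA17, an assembly factor of the enzyme, averaged 31.2 ± 1.40 CPM in the producer and 41.5 ± 3.68 CPM in the parent (SD, n = 3 each), at -0.41 ± 0.093 (SE) with an edgeR adjusted p of 0.067. ATP25 and ATP22, which act on expression of mitochondrially encoded subunits, were at -0.22 ± 0.075 and -0.17 ± 0.067. GC-corrected, INA17 was at -0.33, ATP25 at -0.084 and ATP22 at -0.024. The list of 13 genes for bc1 (median -0.016) also held CYC3, the heme lyase of cytochrome c, which was at 0.35 ± 0.12. In the same list MZM1, a chaperone of Rip1, was at -0.31 ± 0.12 and CBP6, which acts on COB mRNA, at -0.29 ± 0.13. After the GC-content correction CYC3, MZM1 and CBP6 were at -0.060, -0.48 and -0.056. Of the 6 succinate dehydrogenase assembly genes (median 0.0040), SDH8 was at 0.33 ± 0.11, SDH7 at -0.25 ± 0.10 and SDH6 at 0.20 ± 0.11, or 0.054, -0.37 and 0.34 GC-corrected. None of these genes passed.

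None of the carriers, other electron donors and regulators passed. Of the 4 ADP/ATP and phosphate carriers (median 0.24, or 0.048 after the GC-content correction), AAC1 was at 0.37 ± 0.10, MIR1, the phosphate carrier, at 0.33 ± 0.13 and PET9, the main ADP/ATP carrier, at 0.16 ± 0.12, and after the GC-content correction at 0.071, 0.052 and 0.035. Of the 3 other electron donors, GUT2, glycerol-3-phosphate dehydrogenase, was at 0.23 ± 0.12, CYB2, L-lactate dehydrogenase, at -0.18 ± 0.11 and DLD1, D-lactate dehydrogenase, at 0.094 ± 0.10. On the GC-corrected scale all 3 were below 0, GUT2 at -0.058, CYB2 at -0.24 and DLD1 at -0.092. The DNA-binding subunits of the Hap complex, HAP3, HAP2 and HAP5, were at 0.27 ± 0.092, 0.19 ± 0.10 and 0.23 ± 0.13, and at -0.018, 0.0060 and -0.026 after the GC-content correction. In the list of 6 regulators that holds them the median was 0.091, or -0.033 GC-corrected. The 7 subunits encoded in mitochondrial DNA (COX1, COX2, COX3, COB, ATP6, ATP8 and OLI1) were listed at 0 to 8 counts in every library, so the balance between nuclear and mitochondrial subunits was not analysed here.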

How the data were processed

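Each library has 1 table of estimated counts that the authors deposited. Per the file headers, these come from StringTie files tagged rmdup, a usual mark of duplicate removal. HISAT2, SAMtools, Picard, FastQC and DESeq2 are named, with the sacCer3 build, per the submitters' processing notes. Tool versions, the annotation and whether counting used strand: not given in the sources used here. Removing duplicates can lower abundant transcripts, and reads of CEN.PK2-1C were placed on the genome of another laboratory strain, so both may affect levels.

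The 6445 genes were joined by name, and 6210 matched the RefSeq annotation of sacCer3, which gave coding length, GC content and upstream sequence (235 did not match). The values were already whole, so rounding changed nothing. The main test was edgeR 4.0.16 in R 4.3.3 (quasi-likelihood F test, two-sided, filterByExpr, TMM, robust dispersion, group as the only term) over 6125 genes, with Benjamini-Hochberg adjustment over all of them and a threshold of 0.05. CPM was scaled by TMM. The SE is the absolute log2 fold change divided by the square root of F. The GC-content correction removed from each library a loess trend fitted to genes at 5 CPM or more (span 0.5), for 6063 genes, and a length correction was made alike. The test was run on simulated counts of 6117 genes that mimic the comparison of producer with parent. It found 24 of the 50 genes changed 1.25-fold, 48 of the 50 changed 1.5-fold, and all 50 at 2-fold as at 4-fold, with 9 false calls among 181. With 48.4 to 58.3 M estimated counts in a library, replicates of 1 strain differed by far more than counting error (mean chi-square per gene 24.7 to 169). This scale takes the estimated counts as read tallies and adjusts by library totals only, so it is approximate.

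The members, lists and alternatives were chosen with earlier results of these data known. Values per library are given for members past the threshold, the 2 with the smallest p and the highest and lowest per kb of each complex, INH1 and HAP4. Those of COX12, ATP1, ATP17 and the neighbour of COX6 were added after their values were seen. Of the other lists the 3 genes with the smallest p are named, and the whole list of further structural subunits. The mating type markers served as a check of the cells: in edgeR 0 of 5 markers of a cells and 0 of 4 of α cells passed (2 and 1 with an unadjusted p under 0.05, 2 and 1 called by DESeq2, 0 by limma-voom), with medians of 0.084 and 0.098.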

Additional observations from a re-analysis of the deposited data

How the results depend on the processing

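The count of all genes called, 70, was 815 with DESeq2, 10 with the library total as a covariate and 27 with the replicate block and the GC-content correction together. It ran from 15 to 1077 when 1 library was left out, the highest without parental replicate 1, and stayed within 1.5 times under the other alternatives. The count of members called, 1, was 0 with library totals only, with the replicate block, with the block and the GC-content correction, with the library total as a covariate and with limma-voom, and 0 to 2 when 1 library was left out. Same-numbered libraries are tied in the labels by number only. Their deviations from the strain means had correlations of 0.336, -0.336 and -0.566, which cannot tell whether they shared a batch. Under the replicate block 104 genes were called. COX6 was at -0.33 with an adjusted p of 0.057 under the replicate block, and at -0.28 with 0.192 under the block with the GC-content correction. No member changed direction with a call in any setting. Among values that passed in neither fit, 20 of 37 members had the other sign in at least 1 of 18 alternatives, and ATP17 to ATP20, ATP5, QCR6, QCR10 and HAP4 kept theirs.

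Median log2 fold changes moved by more than the spread between libraries in these cases. That of the NADH dehydrogenases was -0.071 with the library total as a covariate and 0.020 to 0.24 with 1 library left out. That of succinate dehydrogenase was -0.077 with the GC-content correction, -0.076 with the block as well and -0.070 with the covariate. That of bc1 was -0.038, -0.038 and -0.014 under the same 3. The spread of subunit levels without division by length was 0.56 in the producer and 0.61 in the parent for succinate dehydrogenase, 1.15 in the producer and 1.02 in the parent for bc1, 0.70 in the producer and 0.75 in the parent for cytochrome c oxidase, and 1.80 in the producer and 1.69 in the parent for the ATP synthase. With subunits of at least 300 bases it was 0.47 for bc1 in the producer, 0.22 for cytochrome c oxidase in the parent, and 0.71 in the producer and 0.60 in the parent for the ATP synthase. With the GC-content correction it was 0.37 in the producer and 0.24 in the parent for succinate dehydrogenase, 0.43 in the producer and 0.50 in the parent for bc1, 0.28 in the producer for cytochrome c oxidase, and 0.79 in each strain for the ATP synthase. The causes were not tested. In simulated counts, which held no GC trend and no library that stood apart, 48 of 50 changes of 1.5-fold were recovered. With 3 libraries per strain, real changes of that size or smaller may be missed.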

Other observations

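The paralog of SDH1 gave a ratio that separated the strains. Per kb of coding length SDH1 stood 14.2, 15.3 and 18.3 times above YJL045W in the producer libraries, against 21.5, 25.2 and 22.0 times in the parental ones. The ratios of the anchors to their own relatives overlapped, with SDH3 at 3.51, 3.75 and 3.42 times SHH3 in the producer and 4.01, 3.15 and 3.65 times in the parent, and SDH4 at 7.16, 6.71 and 7.24 times SHH4 in the producer and 7.22, 6.84 and 7.23 times in the parent. The first ratio was noticed after the values were seen, no test was run on it, and whether the counting shares reads between the relatives was not tested.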
